A study of Mus musculus with 24 samples.

Results

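The genes described here encode the proteins of the cytosolic ribosome, measured in the liver of mice fed phloridzin. They were chosen by name alone, as every gene whose symbol denotes a large subunit protein (Rpl), a stalk protein (Rplp), a small subunit protein (Rps) or Rpsa, and which at least 1 probe set reports without naming another gene. This gave 46 genes on 100 probe sets, of 18193 genes on 34945 single-gene probe sets, with 24 genes of the large subunit and 22 of the small subunit. A further 28 ribosomal protein symbols occurred only on probe sets that also name other genes, and these were not named.

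Male BALB/c mice 6 weeks old ate an AIN-93G purified diet that held 0 (control), 0.1, 0.5 or 1.0% phloridzin for 14 days, with 6 mice per diet and 3 per cage. Phloridzin is a glucoside of apple that blocks sodium-coupled glucose transport. The mice carried no allele or other agent that the labels name, and total RNA of whole liver was hybridised to 24 Affymetrix mouse arrays. In such tissue RNA, fewer cells of a type and less RNA per cell cannot be told apart.

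Each cytosolic ribosome holds a single copy of nearly every one of these proteins, the large subunit carrying the peptidyl transferase centre and the small subunit reading the message. Their messages belong to the most abundant transcripts of liver cells, and most begin at a short run of pyrimidines, the 5′ terminal oligopyrimidine (TOP) tract. Through that tract, mTOR and the RNA-binding protein LARP1 are known to set how strongly these messages are translated, and many of them are transcribed from promoters with sites for ETS-family factors and YY1.

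The start regions of 5 members whose values are described below show what that tract looks like and that the annotated start does not always carry one. A tract was searched as a C followed by at least 4 bases that are each C or T, its first C lying within 10 bases of the annotated start on the coding strand. The sequences are RefSeq promoter windows on GRCm38.p6, from 60 bases before the start to 20 bases after it, written 5′ to 3′ on the coding strand, with the tract in capitals. Rpl27a lay at chr7:109519135-109519214 (plus strand), Rpl13a at chr7:45128726-45128805 (minus strand), Rps9 at chr7:3703981-3704060 (plus strand), Rpsa at chr9:120127706-120127785 (plus strand) and Rps15 at chr10:80292371-80292450 (plus strand).
Rpl27a: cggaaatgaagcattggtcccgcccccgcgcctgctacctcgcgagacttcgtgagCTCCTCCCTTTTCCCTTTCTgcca
Rpl13a: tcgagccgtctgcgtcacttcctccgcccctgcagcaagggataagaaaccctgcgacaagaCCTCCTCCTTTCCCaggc
Rps9: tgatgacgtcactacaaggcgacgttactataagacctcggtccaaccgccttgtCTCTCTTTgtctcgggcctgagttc
Rpsa: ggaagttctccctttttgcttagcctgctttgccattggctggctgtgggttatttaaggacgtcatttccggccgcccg
Rps15: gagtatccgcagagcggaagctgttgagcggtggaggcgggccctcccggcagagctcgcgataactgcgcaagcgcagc

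The tract was 20 bases long at Rpl27a, 14 at Rpl13a and 8 at Rps9, and no tract of this form was found at the annotated starts of Rpsa and Rps15. RefSeq gave 48 windows of 300 bases, from 250 before to 50 after a start, for 40 of the 46 genes. A tract was present in 27 of these windows (56.2%), against 30.7% of 32851 windows of all genes. The letters CCGGAAG, the core bound by ETS-family factors, stood on either strand in 41.7% of the members' windows and in 8.86% of all windows. AAGATGGC, the core bound by YY1, was found in 6.25% of the members' windows and in 2.75% of all windows. TATAAA was found in 10.4% of the members' windows and in 13.6% of all windows. On the other strand CCGGAAG reads CTTCCGG, which begins with a C and 4 pyrimidines. The same letters near a start can therefore count both as an ETS core and as a tract. A match describes letters in a window, not a bound site.

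The 24 arrays held fewer RNA samples than labels. Over 1463 well measured genes, 13 pairs of arrays differed by an SD of 0.0436 to 0.0577 on the log2 scale. A further 8 pairs, joined as closely matching, differed by 0.108 to 0.137, and the other 255 pairs by 0.164 or more. Averaging near-identical arrays left 14 RNA samples. Joining closely matching ones and leaving out an RNA with labels of 2 diets left 11 RNA samples in the fit. These were 4 control samples (replicates 1 and 3 averaged, 2 and 4 averaged, 5, and 6) and 3 samples at 0.1% (replicates 2, 4 and 5). At 0.5% there were 2 samples (replicates 1, 2, 3 and 6 averaged; 4 and 5 averaged), and at 1.0% there were 2 (replicates 2, 3, 5 and 6 averaged; 4). An RNA on 4 arrays carried labels of both the 0.1% and the 1.0% diet and entered no comparison. All p-values measure only the spread between these 11 RNA samples. The labels give each array its own replicate number within a diet, but the arrays partly repeat each other. Of 10 hepatocyte markers listed, 8 were measured, and their mean log2 signal was 12.81 to 12.93 in all 11 samples, with albumin (Alb) at 13.41 to 13.59.

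Signals below are log2 values after quantile normalization, where 3.00 is the floor of the scale, and each gene stands for its probe set with the highest mean. Probe sets bind their targets with different strength, so a signal orders samples and not genes. Of the 46 genes, 43 passed the filter on dim probe sets (22 large, 21 small), and of these 35 had a mean above 9. Rps16, a small subunit protein, lay at the floor in all 11 samples on its only single-gene probe set. Rpl39l, the testis-enriched copy of the exit-tunnel protein Rpl39, was at most 3.45, and Rpl3l, the heart and skeletal muscle copy of Rpl3, was at most 3.76. These 3 genes were left out as dim and have no test.

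The level of the group as a whole was close in all diets. The median over the 43 genes was 11.38, 11.41, 11.39 and 11.35 in the control samples, 11.31, 11.46 and 11.51 at 0.1%, 11.49 and 11.31 at 0.5%, and 11.42 and 11.30 at 1.0%. The 4 control values lay inside the range of the phloridzin samples, and each dose had a sample above and a sample below the control values. Since the subunits are read by different probe sets, they were compared only through differences between samples.

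**Figure D1:**
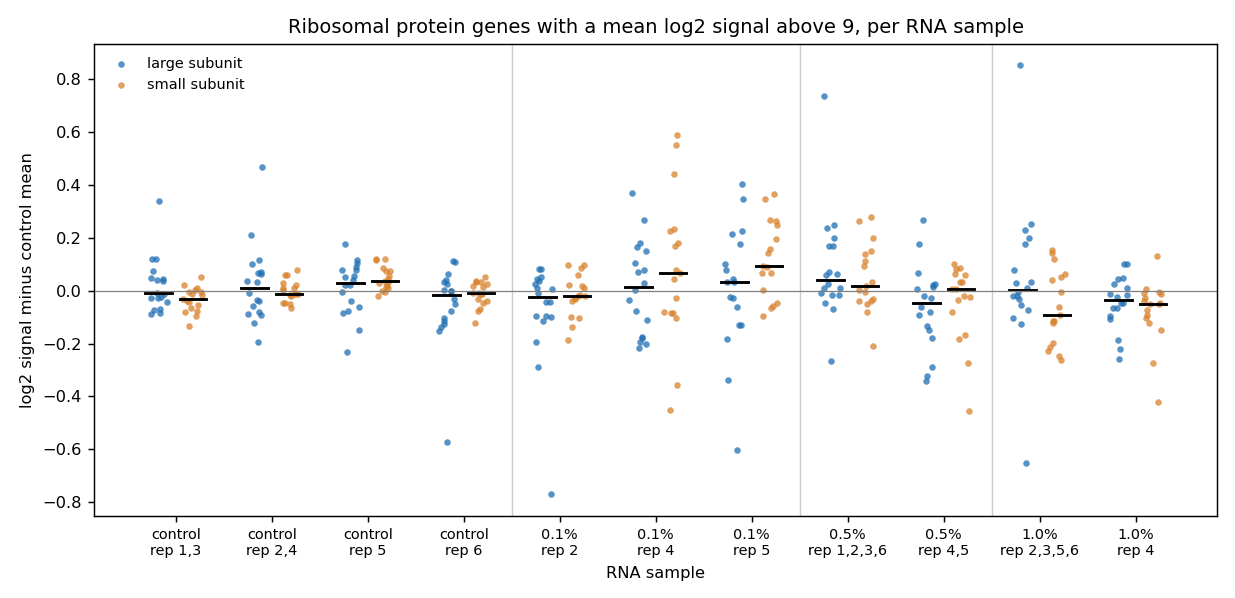
Log2 signal of each of the 35 ribosomal protein genes with a mean above 9, minus its control mean, in the 11 RNA samples (x axis), with large subunit genes in blue, small subunit genes in orange and black bars at the medians. The medians stay close to 0 in every sample, and single genes such as Rpl41 lie far from them.

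At 0.1% phloridzin against control, the median log2 difference of the 43 genes was 0.04, beside 0.003 for all 13118 genes tested. Higher values were found for 26 of 43 genes, where 50.6% of all genes were higher. The large subunit median was 0.02 and the small subunit median 0.05. In limma, 0 of 43 genes passed an adjusted p under 0.05, against 0.0229% of all genes, and the lowest adjusted p was 0.488. At an unadjusted p under 0.05 there were 5 of 43 (11.6%), 3 higher and 2 lower, against 8.47% of all genes. All 3 samples lay above all 4 control samples for 2 of 43 genes (4.65%), against 4.13% of all genes, and below them for 2 of 43 (4.65%), against 3.74%. These shares were near those of all genes.

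At 0.5% phloridzin against control, the median difference was -0.001, beside 0.007 for all genes. Of the 43 genes 21 were higher (51.1% of all genes), with a large subunit median of -0.03 and a small subunit median of 0.01. In limma 0 of 43 passed the adjusted threshold, against 0.00762% of all genes, with a lowest adjusted p of 0.812. Unadjusted, 3 of 43 (6.98%) had a p under 0.05, 1 higher and 2 lower, against 5.22% of all genes. Both samples lay above every control sample for 6 of 43 genes (14%; 9.16% of all genes) and below for 3 of 43 (6.98%; 8.69% of all genes).

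At 1.0% phloridzin against control, the median difference was -0.03, beside -0.02 for all genes, and 19 of 43 genes were higher, against 46% of all genes. Here the small subunit median was -0.09, with 14 of 21 genes lower, and the large subunit median was 0.004, with 10 of 22 lower. The small subunit median was -0.03 without probe sets of the x or s type, -0.04 with the mean of all probe sets of a gene, -0.05 without the sample of replicates 2, 3, 5 and 6, and -0.06 without control replicate 5. It was -0.01 with cyclic loess, another scaling, -0.04 with all 24 arrays as separate samples, and -0.03 with the RNA of 2 diet labels placed under each label. Other scalings, described below, gave -0.13 (75th percentile), -0.28 (array medians), -0.44 (no scaling), -0.70 (hybridisation controls) and 0.07 (brightest non-member genes). Relative to the median of all genes, it was -0.07 after quantile normalization, -0.001 with cyclic loess and -0.10 to -0.07 with the others. The others shift all genes of an array alike, so their relative values nearly repeat each other by construction. In limma 0 of 43 passed, against 0.0152% of all genes, with a lowest adjusted p of 0.758. Unadjusted, 4 of 43 (9.30%) had a p under 0.05, all lower, against 6.49% of all genes. Both samples lay below every control sample for 10 of 43 genes (23.3%), 7 small and 3 large, against 12.4% of all genes, and above for 3 of 43 (6.98%; 8.23% of all genes). The difference between the subunits was not tested.

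The 3 comparisons share the 4 control samples, so their differences are not independent of each other. An F-test over the diets called 0 of 43 genes (0.0152% of all genes), with 5 of 43 at an unadjusted p under 0.05, against 9.25% of all genes. A slope on the phloridzin content called 0 of 43 (0% of all genes), with 5 of 43 at an unadjusted p under 0.05, against 8.83% of all genes. Slopes were above 0 for 13 of 43 genes, and the median slope was -0.06 log2 units per percent of phloridzin in the diet. The matching share and median slope of all genes were not computed, so no trend of the members is read from these values.

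The intervals show how large a difference the arrays could have missed. At 0.1%, the 95% interval of the difference lay wholly inside a 1.5-fold change in either direction for 38 of 43 genes, against 43.4% of all genes. The same held for 32 of 43 at 0.5%, against 37.2% of all genes, and for 35 of 43 at 1.0%, against 35.9%. Most members have bright probe sets, so genes with a mean above 9 are the closer comparison. Of the 35 members above 9, 97.1, 91.4 and 94.3% lay inside 1.5-fold at 0.1, 0.5 and 1.0%, against 85.2, 83.3 and 83.3% of 1433 other genes above 9. Inside a 2-fold change lay 42, 41 and 39 of the 43 genes, against 84.8, 79.7 and 78.4% of all genes. Of the members above 9 these were 100, 97.1 and 97.1%, against 98.2, 96.9 and 96.9% of the other genes above 9. The median width of these intervals to either side was 0.20 at 0.1% and 0.23 at 0.5 and 1.0%. For a typical member, a difference smaller than that width had an unadjusted p above 0.05. A call at an adjusted p under 0.05 needed a larger difference.

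**Figure D2:**
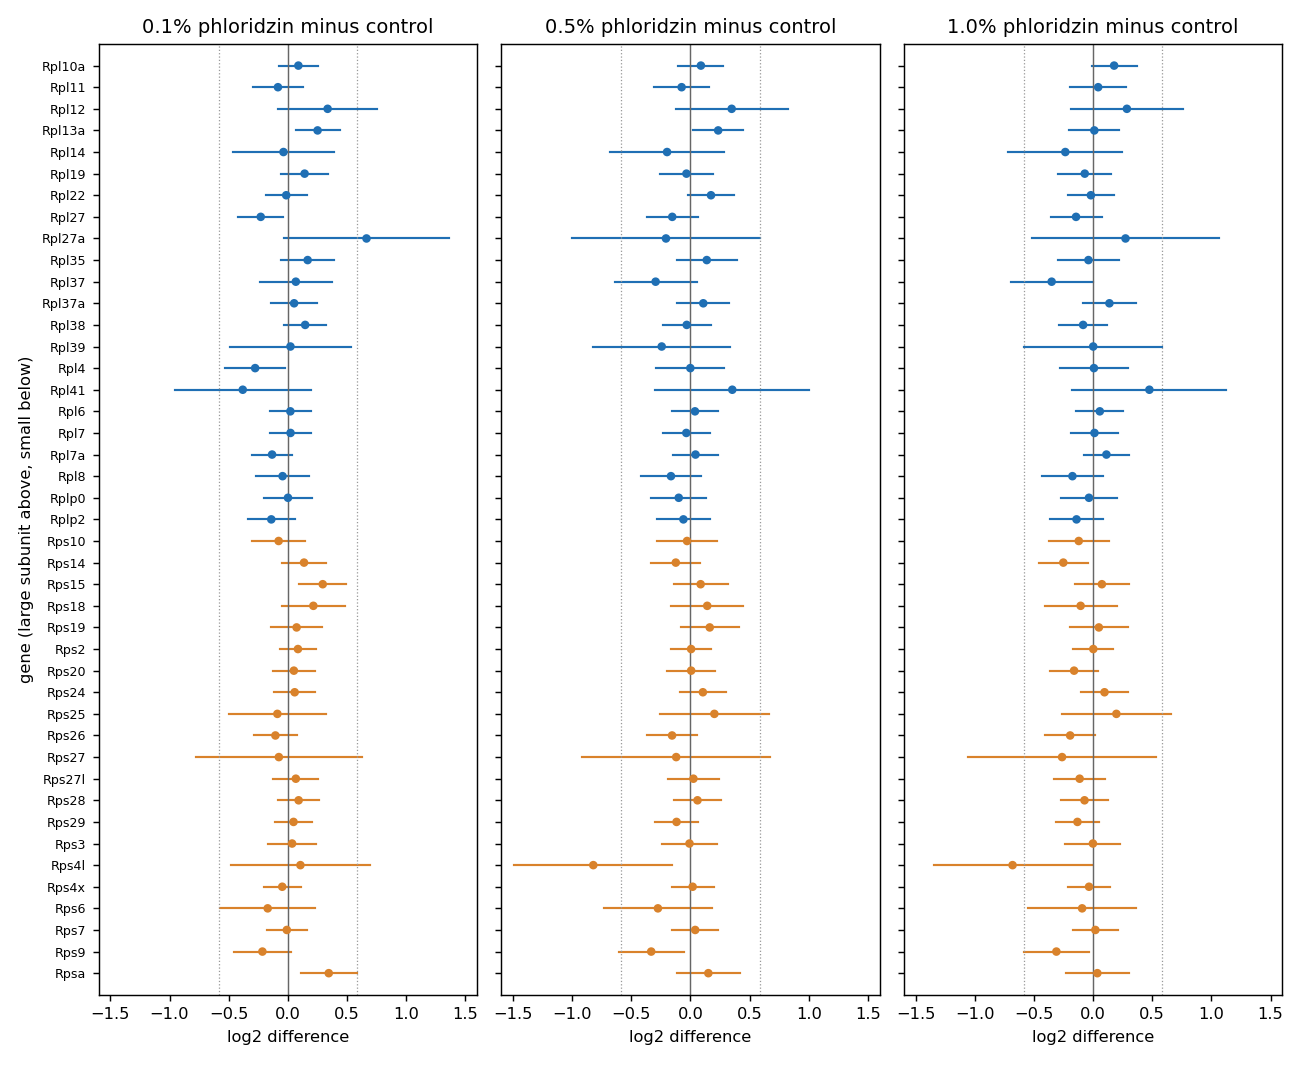
Log2 difference from control (points) with its 95% interval (lines) for 43 ribosomal protein genes at 0.1, 0.5 and 1.0% phloridzin, large subunit in blue and small subunit in orange; dotted lines mark a 1.5-fold change. Most points lie between the dotted lines, and the wide intervals belong to dim or variable probe sets such as Rpl27a, Rpl41, Rps27 and Rps4l.

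Among small subunit genes, Rpsa had the largest difference at 0.1%. Rpsa is a small subunit protein also known as the laminin receptor. It stood at 11.28, 11.78 and 11.56 in the 0.1% samples, against 11.16, 11.13, 11.31 and 11.18 in the control samples. The lowest 0.1% sample lay inside the control range and the other 2 lay above it, and the difference was 0.35 ± 0.11 (SE; 1.27-fold; unadjusted p = 0.00729, limma adjusted p = 0.488). At 0.5% it was 11.39 and 11.30 (difference 0.15 ± 0.12), and at 1.0% it was 11.31 and 11.14 (0.04 ± 0.12).

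Rps15, which sits in the head of the small subunit near the decoding site, was 11.37, 11.72 and 11.62 at 0.1%, against 11.25, 11.23, 11.32 and 11.31 in control samples. All 3 samples at 0.1% lay above all control samples, by 0.29 ± 0.09 (SE; unadjusted p = 0.00721, limma adjusted p = 0.488). At 0.5% (11.42 and 11.31) and at 1.0% (11.43 and 11.27) its samples overlapped the control samples. The second probe set of Rps15 above 9 went the other way at 0.1%, with a difference of -0.09.

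Rps9, a protein of the small subunit body that is known for its part in decoding accuracy in yeast, had low values at both higher doses. It was 10.55 and 10.31 at 0.5% and 10.56 and 10.34 at 1.0%, against 10.81, 10.75, 10.85 and 10.64 in control samples. All 4 of these phloridzin samples lay below all control samples, with differences of -0.33 ± 0.13 at 0.5% (SE; unadjusted p = 0.0214, limma adjusted p = 0.819) and -0.31 ± 0.13 at 1.0% (unadjusted p = 0.0297, limma adjusted p = 0.760). Without the sample averaged over 0.5% replicates 4 and 5 the first was -0.21, and without 1.0% replicate 4 the second was -0.20. The 0.1% samples, at 10.63, 10.31 and 10.71, overlapped the control samples. The other 2 probe sets of Rps9 were dim, with means of 5.38 and 3.59.

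Rps14, a small subunit protein whose loss is known from human marrow failure with a deletion on chromosome arm 5q, had the lowest p of the 43 genes in the F-test over the diets and for the slope. It was 12.06 and 12.02 at 1.0%, against 12.15, 12.28, 12.41 and 12.31 in control samples, both below all of them. The difference was -0.25 ± 0.10 (SE; unadjusted p = 0.0208, limma adjusted p = 0.758). At 0.1% it was 12.38, 12.33 and 12.56 and at 0.5% it was 12.21 and 12.12. The slope was -0.31 ± 0.10 per percent of phloridzin (unadjusted p = 0.00576, limma adjusted p = 0.464), and the F-test's adjusted p was 0.444. Its second probe set followed it closely, with differences of 0.19, -0.12 and -0.19 at 0.1, 0.5 and 1.0% (r = 0.936 over the 11 samples).

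Rps4l, an autosomal relative of the X-linked Rps4x, varied most among the small subunit genes. It was 6.71 and 6.46 at 0.5% and 6.57 and 6.89 at 1.0%, against 6.82, 7.35, 7.25 and 8.22 in control samples. Both 0.5% samples lay below all control samples and 1 sample at 1.0% lay inside their range. The differences were -0.82 ± 0.31 at 0.5% (SE; 0.566-fold; unadjusted p = 0.0196, limma adjusted p = 0.812) and -0.68 ± 0.31 at 1.0% (0.624-fold; unadjusted p = 0.0464, limma adjusted p = 0.761). The control samples alone spanned more than either difference, and without control replicate 6 the difference at 1.0% was -0.41. Rps4x itself had the smallest spread of the 43 genes tested, with values between 11.81 and 11.96 in the 11 samples (SD 0.0475), followed by Rps2 (SD 0.0554) and Rps7 (SD 0.0636).

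Among large subunit genes, Rpl13a had high values at the lower doses. Rpl13a is a structural protein of the large subunit that in human cells can also leave the ribosome and silence inflammatory messages, and it is widely used as a reference gene in PCR. It was 12.05, 12.24 and 12.37 at 0.1% and 12.17 and 12.24 at 0.5%, against 11.96, 11.89, 12.06 and 11.97 in control samples. The lowest 0.1% sample lay inside the control range, and both 0.5% samples lay above it. The differences were 0.25 ± 0.09 at 0.1% (SE; unadjusted p = 0.0119, limma adjusted p = 0.505) and 0.23 ± 0.10 at 0.5% (unadjusted p = 0.0323, limma adjusted p = 0.897). At 1.0% it was 12.00 and 11.96, a difference of 0.01 ± 0.10. The other probe sets of Rpl13a above 9 differed by -0.03 and 0.33 at 0.1% and by -0.13 and 0.21 at 0.5%.

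Rpl27 and Rpl4, structural proteins of the large subunit, had low values at 0.1%, and part of Rpl4 is known to line the exit tunnel of the nascent chain. Rpl27 was 10.82, 10.89 and 10.93, against 11.15, 11.18, 11.03 and 11.08 in control samples, and the groups did not overlap (difference -0.23 ± 0.09, SE; unadjusted p = 0.0216, limma adjusted p = 0.528). Its other 2 bright probe sets differed in the opposite direction. Rpl4 was 11.76, 11.77 and 11.28, against 12.00, 12.00, 11.79 and 11.73, and the groups overlapped (-0.28 ± 0.12; unadjusted p = 0.0353, limma adjusted p = 0.558). For Rpl4 the sample of replicate 5 held most of the difference, and leaving it out gave -0.11. Rpl4 differed by -0.001 at 0.5% and 0.01 at 1.0%.

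Rpl41, the shortest protein of the large subunit, had the largest spread of the members above 9 (SD 0.517). It was 10.36, 11.09 and 10.79 at 0.1%, 11.86 and 11.10 at 0.5% and 11.98 and 11.23 at 1.0%, against 11.46, 11.59, 10.89 and 10.55 in control samples. Every dose overlapped the control samples, and the differences were -0.38 ± 0.27, 0.35 ± 0.30 and 0.48 ± 0.30 (SE) at 0.1, 0.5 and 1.0%. Single samples decided these values. Without 0.1% replicate 2 the first was -0.19, and it was -0.23 without the control sample of replicates 2 and 4 and -0.57 without control replicate 6. At 0.5% the difference was -0.03 without the sample of replicates 1, 2, 3 and 6, 0.74 without that of replicates 4 and 5 and 0.16 without control replicate 6. At 1.0% it was 0.10 without the sample of replicates 2, 3, 5 and 6, 0.85 without replicate 4 and 0.28 without control replicate 6. All these values belong to 1 probe set. The other probe set of Rpl41 above 9, with an SD of 0.178, differed by 0.04, 0.05 and 0.09 at 0.1, 0.5 and 1.0%.

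Rpl37, a zinc-binding protein of the large subunit, was 8.45 and 9.05 at 1.0%, against 9.22, 8.91, 9.28 and 8.998 in control samples. The difference was -0.35 ± 0.16 (SE; unadjusted p = 0.0476, limma adjusted p = 0.761), and without the sample averaged over replicates 2, 3, 5 and 6 it was -0.05 and without replicate 4 it was -0.65. At 0.5% Rpl37 stood at 8.84 and 8.78, below all control samples (difference -0.29 ± 0.16).

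**Figure D3:**
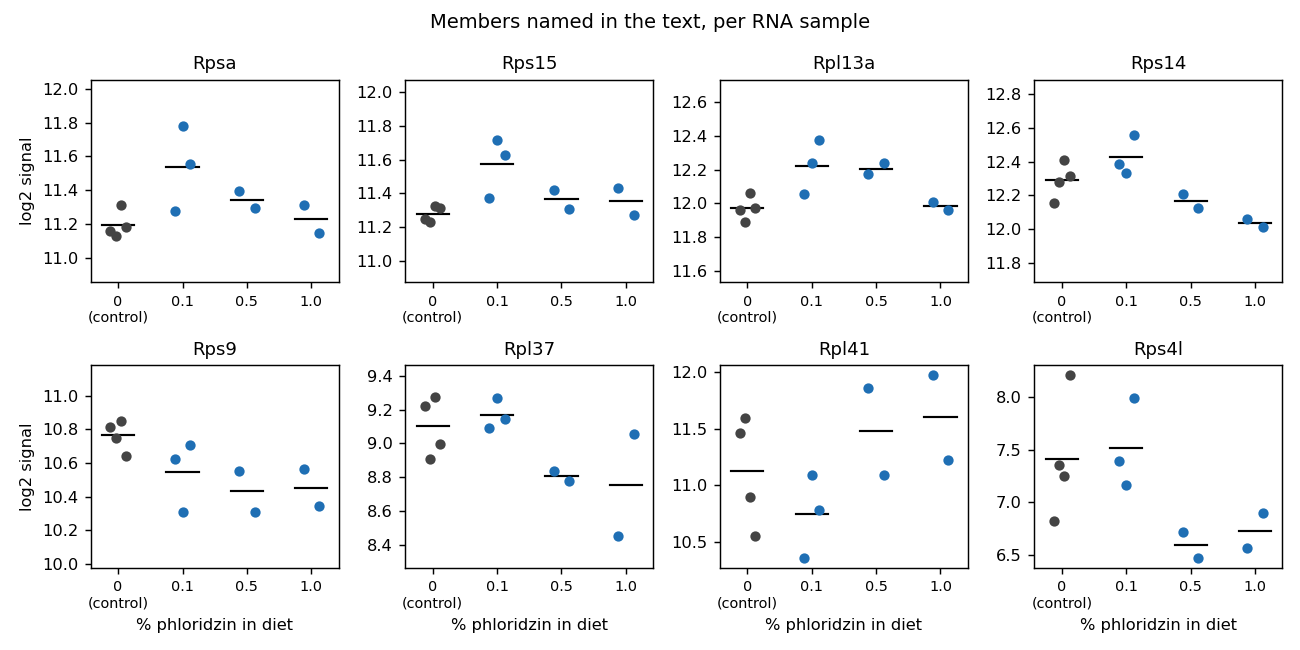
Log2 signal of 8 ribosomal protein genes in each RNA sample (points) and the mean (bars) of the control diet and of diets with 0.1, 0.5 and 1.0% phloridzin; each panel has its own axis. Rpsa and Rps15 are highest at 0.1%, Rps14 is lowest at 1.0%, and the control samples of Rpl41 and Rps4l span more than 1 log2 unit.

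The remaining members with extreme differences had dim probe sets. Rpl27a was 7.23, 8.001 and 7.29 at 0.1%, against 6.38, 6.17, 7.29 and 7.52 in control samples, and had the largest difference of any member at that dose (0.66 ± 0.32, SE), with overlapping groups. Without 0.1% replicate 4 it was 0.42, and without the control sample of replicates 2 and 4 it was 0.44. Rpl12, which joins the base of the large subunit stalk, differed by 0.34, 0.35 and 0.29 at 0.1, 0.5 and 1.0%, on a probe set with a mean of 4.93; the last value was 0.45 without the sample of replicates 2, 3, 5 and 6 and 0.13 without replicate 4. For 5 of the 8 members below 9 (Rps25, Rpl14, Rpl12, Rps27 and Rpl39), repeat arrays of 1 RNA differed as much as the samples did. This was so for 0 of the 35 members above 9, whose median repeat SD was 0.0174. Rps6, the small subunit protein phosphorylated by S6 kinase, also fell among the dim probe sets (mean 6.10), and differed by -0.17, -0.28 and -0.09.

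The ribosomal stalk recruits the elongation factors. Rplp0, its anchor and a common PCR reference gene, was 11.40 and 11.34 at 1.0%, against 11.33, 11.32, 11.46 and 11.52 in control samples (difference -0.03 ± 0.11, SE). Rplp2 was 11.33 and 11.09 at 1.0%, against 11.33, 11.42, 11.31 and 11.35 (-0.14 ± 0.10), and Rplp1 was present only on probe sets that name further genes. The other PCR reference genes among the members differed at 1.0% by -0.07 ± 0.10 (Rpl19) and -0.11 ± 0.14 (Rps18), and at 0.1% by 0.14 ± 0.09 (Rpl19) and 0.22 ± 0.13 (Rps18). On its other probe sets above 9, Rps18 differed by -0.05 and -0.09 at 0.1% and by -0.21 and -0.025 at 1.0%. Rps27l, a p53-responsive relative of Rps27, differed by 0.07, 0.02 and -0.11 at 0.1, 0.5 and 1.0%. Fau, which encodes the small subunit protein eS30 fused to a ubiquitin-like domain and is not a member by name, was 11.20 and 10.63 at 1.0%, against 10.75, 10.71, 10.60 and 10.59 in control samples (limma adjusted p = 0.772).

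The 5 brightest probe sets were those of Rps29, Rps2, Rpl38, Rps14 and Rps28, whose SDs over the 11 samples ran from 0.0554 (Rps2) to 0.164 (Rps14). Rps29 was 13.08 and 13.24 at 1.0%, against 13.30, 13.37, 13.27 and 13.22 in control samples, and Rps2 was 12.63 and 12.64, against 12.59, 12.61, 12.67 and 12.67. Rpl38, a large subunit protein known for its part in translating Hox messages in mouse embryos, was 12.45 and 12.43, against 12.44, 12.47, 12.63 and 12.56. Rps28, of the small subunit, was 12.11 and 12.20, against 12.25, 12.18, 12.27 and 12.22. At 1.0% all 5 but Rps2 had a lower mean than control, with Rps14 furthest from it. Over the 11 samples, the 35 members above 9 had a median SD of 0.111, against 0.168 for 1433 other genes above 9. As a description over 11 samples that share normalization, the median pairwise correlation among these 35 members was 0.09, with 0.06 within the large subunit, 0.23 within the small subunit and 0.01 among the other genes above 9. The genes whose profile was most like the mean of all members tested, dim ones included, were Csnk1d (r = 0.923), Ppan (0.919), Hcfc1r1 (0.910), Fkbp2 (0.909) and Nfatc2ip (0.908). These were the highest of 13075 genes over 11 samples, so their r values are high in part by selection. Variable members weigh most in that mean.

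Array scaling moved the level of the whole group by more than the diets did after quantile normalization. With each array centred on its median, the members' median difference was -0.04, -0.14 and -0.26 at 0.1, 0.5 and 1.0%. Without scaling it was -0.13, -0.24 and -0.42, and with each array centred on its hybridisation controls (control transcripts added to the hybridisation mix) it was -0.18, -0.31 and -0.68. With the 75th percentile of each array it was 0.05, -0.04 and -0.11, with cyclic loess 0.03, 0.03 and 0.02, and with the brightest non-member genes 0.07, 0.07 and 0.09. The sign at 1.0% therefore depended on the scaling, and the number of members higher than control at that dose ran from 0 of 43 with the hybridisation controls to 31 of 43 with the brightest non-member genes, beside 19 of 43 after quantile normalization.

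All genes moved along with the members. Apart from quantile normalization and cyclic loess, each scaling shifts all genes of an array alike. Agreement among those scalings relative to all genes is therefore fixed in advance and is no separate check. The median of all genes at 1.0% was -0.20 with array medians, -0.05 with the 75th percentile, -0.35 without scaling, -0.60 with the hybridisation controls, -0.01 with cyclic loess and 0.14 with the brightest non-member genes. Relative to that median, the members stood 0.03 to 0.04 higher at 0.1% in all 7 scalings. At 0.5% they stood between -0.05 and 0.03, and at 1.0% between -0.08 and 0.02, with the positive values from cyclic loess in both cases. The small subunit genes stood at -0.10 to -0.001 and the large subunit genes at -0.05 to 0.04 relative to all genes at 1.0%. None of the 7 scalings called a member in any comparison with control in limma.

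The shift came from some samples more than others. With the hybridisation controls, the members' median was 10.64 in the sample averaged over 1.0% replicates 2, 3, 5 and 6 and 11.50 in 1.0% replicate 4, against 11.86, 11.74, 11.73 and 11.70 in control samples. The median of all genes in these 2 samples was 5.25 and 6.30, against 6.53, 6.35, 6.31 and 6.31 in control samples. After quantile normalization, the members' medians of all 11 samples lay within 0.21 of each other, against 1.22 with the hybridisation controls and 0.69 without scaling. Whether the total RNA or the hybridisation differed between these arrays was not tested.

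**Figure D4:**
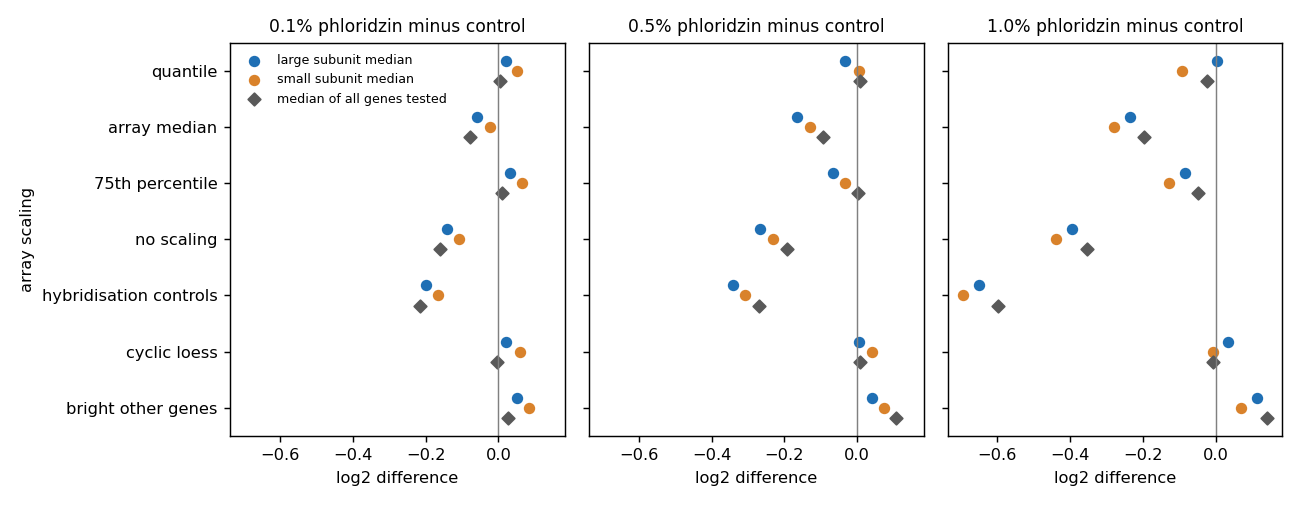
Median log2 difference from control of the large subunit genes (blue), the small subunit genes (orange) and all genes tested (grey diamonds) under 7 array scalings, at 0.1, 0.5 and 1.0% phloridzin. The 3 medians move together from scaling to scaling, to about -0.7 at 1.0% with the hybridisation controls, and stay near 0 after quantile normalization and cyclic loess.

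Single members moved with the scaling as well. At 0.1%, Rpsa was 0.12 to 0.37 and Rps15 0.06 to 0.31 above control over the 7 scalings, and Rpl13a was 0.05 to 0.30. At 1.0%, Rps9 was -1.01 to -0.25, Rps14 was -0.88 to -0.12 and Rps4l was -1.32 to -0.55. At 0.5%, Rpl13a ran from -0.10 to 0.28, so its sign depended on the scaling. At 1.0%, Rpl41 ran from -0.19 to 0.58.

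Probe sets of the same gene often disagreed. Of the members, 17 had at least 2 probe sets with a mean above 9 (49 probe sets in all). Probe sets of 1 gene had differences of opposite sign in 10, 9 and 10 of these 17 genes at 0.1, 0.5 and 1.0%, with a median range within a gene of 0.15, 0.15 and 0.11. The widest range was that of Rps10, at 0.77, 0.42 and 0.45. At 0.1%, the 3 bright probe sets of Rpl27 differed from control by -0.23, 0.24 and 0.28, and the 3 of Rpl13a by 0.25, -0.03 and 0.33. For Rpl7, the brightest probe set differed by 0.02 at 0.1% and another, singled out after its values were seen, by -0.61. That probe set was 10.67, 10.07 and 10.44 at 0.1%, 10.62 and 10.64 at 0.5% and 10.50 and 10.74 at 1.0%, against 11.00, 11.02, 11.06 and 10.93 in control samples, with every phloridzin sample lower. It was not in the fit, which took 1 probe set per gene.

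**Figure D5:**
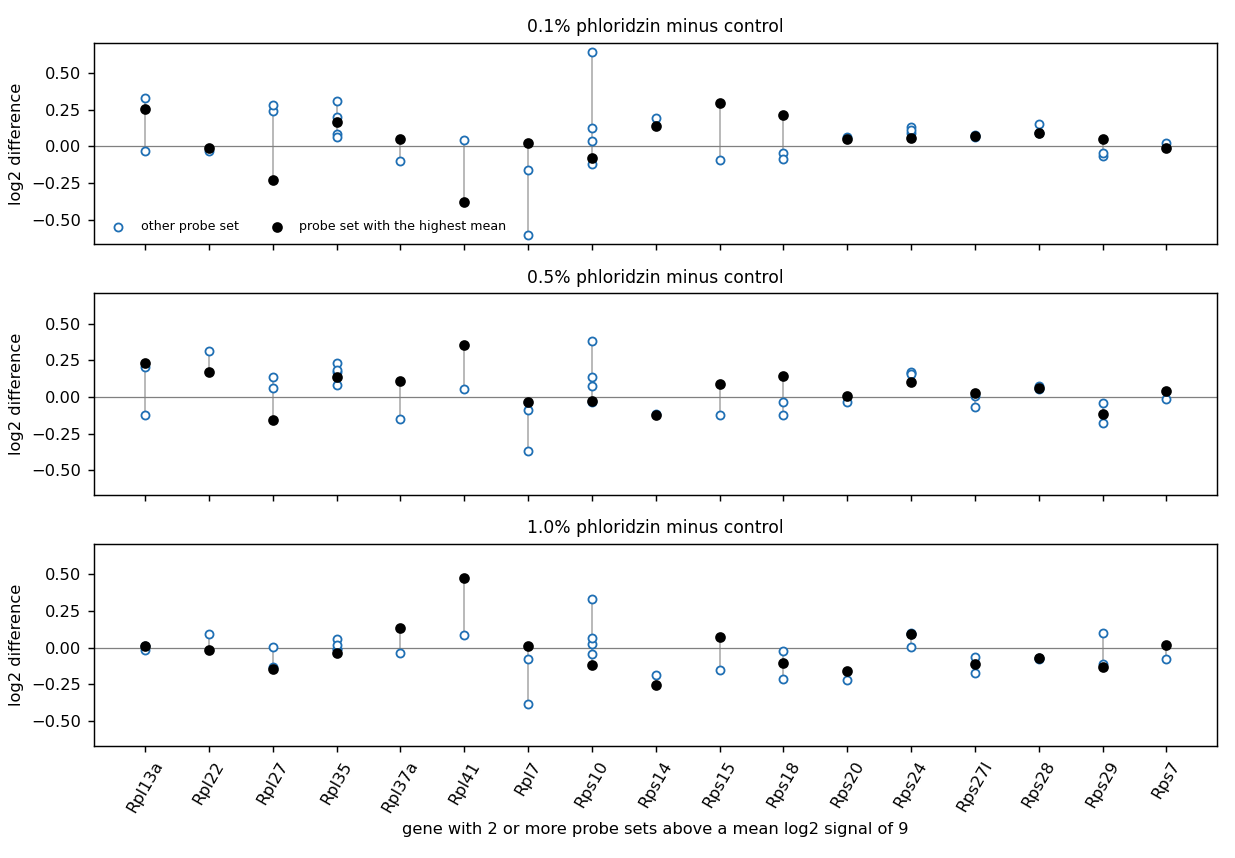
Log2 difference from control for each probe set with a mean above 9 of 17 ribosomal protein genes, at 0.1, 0.5 and 1.0% phloridzin; black points are the probe sets with the highest mean and open points the others, joined by a line per gene. Rps10, Rpl7, Rpl27 and Rpl41 have the widest ranges at 0.1%, and many lines cross 0.

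Of the 46 probe sets used, 14 carry the array maker's x mark for probes that may bind other transcripts and 2 the s mark for probes shared between transcripts. Ribosomal protein genes have many processed pseudogenes, so signals of such probe sets are uncertain as measures of 1 gene. The 110 probe sets that name a ribosomal protein gene with other genes included 81 with a mean above 9, whose median difference was 0.03, 0.04 and -0.01 at 0.1, 0.5 and 1.0%.

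Measures of RNA integrity and of other cell types differed between samples. The 3′ minus 5′ difference of the Gapdh probe sets was -0.27, -0.05 and -0.26 at 0.1% and -0.18 in both samples at 0.5%. It was -0.31 and -0.35 at 1.0% and -0.37 to -0.28 in control samples. Every sample at 0.1 and 0.5% thus lay above all control samples, in 1 case narrowly. The actin probe sets at the 3′ end exceeded those at the 5′ end by 2.32 in 0.1% replicate 4, against 1.31 to 1.54 in control samples. In the same sample the mean of 11 of 11 Kupffer cell markers was 6.98, against 7.31 to 7.47 in control samples, and that of 8 of 8 sinusoidal endothelial markers was 6.27, against 6.78 to 6.99. The other 0.1% samples had 7.28 and 7.31 for the Kupffer cell markers and 6.79 and 6.91 for the endothelial markers. At 1.0% the Kupffer cell markers were 7.26 and 7.29. In the 0.5% sample averaged over replicates 4 and 5 the actin difference was 1.78, and the mean of 7 of 7 neutrophil markers was 5.25, against 4.02 to 4.52 in control samples, with Camp at the floor in 10 of 11 samples. The other 0.5% sample had 1.49 and 4.26. In the first lists Marco was at the floor in 6 of 11 samples and Pecam1 in 1. Of 5 cholangiocyte markers 4 were measured, with means of 4.01, 3.93 and 3.57 at 0.1%, 3.99 and 3.94 at 0.5% and 3.45 and 3.88 at 1.0%, against 3.23 to 3.61 in control samples, and Krt7 was at the floor in 7 samples. Without 0.1% replicate 4 the differences at 0.1% were 0.22 for Rpsa and 0.22 for Rps15. The part of RNA integrity and of these markers in the other values was not tested.

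Other genes of the translation machinery were read from lists chosen with earlier results of these data known. Of 14 measured elongation factors and other TOP transcripts (18 listed), 0 passed in limma at any dose, with medians of -0.01, -0.04 and -0.08 at 0.1, 0.5 and 1.0%. Unadjusted, 2, 1 and 0 of them had a p under 0.05. Among all genes tested these shares were 8.47, 5.22 and 6.49%, which also stand beside the counts of the lists below. Eef1d, a subunit of the exchange factor that recharges elongation factor 1, differed by 0.12, -0.32 and -0.26 (SE 0.13 at 1.0%). Nap1l1, a histone chaperone with a TOP message, differed by -0.46, -0.02 and -0.19.

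Of 31 nucleolar assembly factors, all measured, 0 passed, with medians of 0.05, -0.06 and -0.03 and 1, 3 and 6 at an unadjusted p under 0.05. Of these, 2 were higher and 1 lower at 0.5%, and 2 higher and 4 lower at 1.0%. Differences at 1.0% ran from -0.95 to 0.82. Wdr12, a component of the PeBoW complex of large subunit assembly, differed by -0.55 at 1.0% (limma adjusted p = 0.715), and Rrp12, which is needed for export of both subunits in yeast, by -0.95 on a dim probe set with a control mean of 4.19 (limma adjusted p = 0.745). Gar1, of the pseudouridylation particles, differed by -0.53.

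Of 18 measured initiation factors (22 listed), 0 passed, with medians of -0.02, 0.01 and 0.08 and 1, 1 and 2 at an unadjusted p under 0.05. Eif4g2 differed by 0.23 and Eif3d by -0.27 at 1.0%. All 10 measured genes of the mTOR list (11 listed) were lower at 1.0%, with a median of -0.13, where the median of all genes was -0.02. At 0.1% 6 of 10 were higher (median 0.02) and at 0.5% 5 of 10 (median 0.01). At 1.0%, 9 of 10 lay below the median of all genes after quantile normalization and 10 of 10 with cyclic loess. The other scalings shift all genes of an array alike, so their 10 of 10 is no separate check. With the brightest non-member genes, where the median of all genes was 0.14, 5 of 10 lay below control. None of the 10 passed in limma at any dose, and at 1.0% 0 had an unadjusted p under 0.05. Eif4ebp2, which encodes a repressor of cap-dependent initiation, differed by 0.09, 0.18 and -0.25 (SE 0.12 at 1.0%; limma adjusted p = 0.761), and Mtor by 0.02, 0.21 and -0.13. The 76 mitochondrial ribosomal protein genes had medians of 0.04, -0.08 and -0.08, with 0 called and 6, 5 and 7 at an unadjusted p under 0.05. Mrpl40 differed by -0.29, -0.38 and -0.47 at 0.1, 0.5 and 1.0% (limma adjusted p = 0.745 at 1.0%).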

How the data were processed

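The deposited values were intensities on a linear scale, for 45101 probe sets and 24 arrays. How the authors summarised, background-corrected or scaled them is not given in the sources used here. Genes were named from the platform's annotation, using probe sets with 1 gene. Intensities were quantile-normalized, floored at 8 and put on the log2 scale, and arrays of 1 RNA were averaged. Near-identical arrays had an SD of the log2 difference under 0.08 over genes with a mean above 9. Closely matching ones differed over the 200 most variable genes by under 1.2 times their difference over the rest. The lowest ratios were 0.929 and 1.10, which led to joining, and the next was 1.29. The lowest 40% of probe sets were left out and the probe set with the highest mean stood for a gene. One limma model (3.58.1, R 4.3.3; lmFit, eBayes with trend) covered 11 samples with 7 residual degrees of freedom, without covariates. Tests were two-sided, Benjamini-Hochberg adjustment ran over 13118 genes, and genes were called at an adjusted p under 0.05. The number of arrays limits the precision.

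The limma fit was tested on simulated data with planted differences larger than any member's difference from control. That test does not cover differences of the size reported here. The members, gene lists, thresholds and tests were chosen with earlier results of these data known. Named members were the 3 highest and 3 lowest differences per dose, the 5 brightest and dimmest, the 3 most and least variable, the stalk, PCR reference genes, paralogues and fusions, any called member, the 5 genes most like the members, and up to 3 genes of each other list by p at 1.0%. Members with an unadjusted p under 0.05, Rps6 and Rps10 were added after their values were seen.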

Additional observations from a re-analysis of the deposited data

How the results depend on the processing

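No member was called against control in 26 of 28 alternatives, which covered scaling, floors, filters, probe set rules, joining of arrays, the model and leaving out each sample, and the lowest adjusted p among these was 0.114. The exceptions treat all 24 arrays as separate samples, repeats included. They called 14, 1 and 1 members at 0.1, 0.5 and 1.0% and 21 in the F-test, where 20.1, 3.42, 3.06 and 35.9% of all genes were called. With a replicate block these were 14, 1 and 1, and 20 in the F-test, where 20.8, 3.3, 2.65 and 35.9% of all genes were called. Replicate numbers did not pair the samples: the deviations of 36 same-numbered pairs of arrays had a median correlation of -0.06 (-0.56 to 0.82), against -0.02 in 180 other pairs. The members' median difference moved beyond its within-diet SD of 0.0819 with array medians (-0.14 at 0.5%, -0.26 at 1.0%), without scaling (-0.13, -0.24 and -0.42 at 0.1, 0.5 and 1.0%), with the hybridisation controls (-0.18, -0.31 and -0.68) and with the brightest non-member genes (0.0873 at 1.0%). These scalings shift all genes alike by construction. The hybridisation controls gave 1 member called for the slope, Rps4l at -1.43 ± 0.35 (SE; limma adjusted p = 0.0182), among 54 genes called. Leaving out each sample in turn moved the medians between 0.01 and 0.06, between -0.02 and 0.02, and between -0.05 and -0.02 at 0.1, 0.5 and 1.0%. A fit of control and 1 dose alone gave no F-test or slope. With 2 samples at the higher doses, the unadjusted 95% interval of a typical member reached about 0.23 to either side on the log2 scale. A call at an adjusted p under 0.05 needed a larger difference than that.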

Other observations

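The RNA of 4 arrays that carried labels of both the 0.1% and the 1.0% diet entered no comparison. Its median over the 43 members was 11.52, 28 of 43 members were above the control mean, and the median difference from that mean was 0.13. Among members above 9, Rps14 was 0.60 and Rps18 0.59 above the control mean, while Rpl4 was 0.90 below it at 10.97. Rpl27a was 1.26 above the control mean and Rpl12 was 3.42, against a control mean of 4.72, both on dim probe sets. Its diet is not settled by the labels, so no comparison with either diet was made.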
